A study of Mus musculus with 6 samples.

Results

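Some miRNAs are so closely tied to a cell lineage that their reads are used to look for foreign cells or RNA in a culture. Those of 8 such hairpins were measured in cultured mouse mesangial cells: miR-126 for endothelium, miR-142, miR-223 and miR-150 for blood cells, miR-122 for liver, miR-124 and miR-9 for neural cells, and miR-203 for squamous epithelium. In the table these are rows such as mmu-miR-126-3p, mmu-miR-142-5p, mmu-miR-122-5p, mmu-miR-124-3p and mmu-miR-203-3p, named here without the species prefix. They were chosen by hairpin name, either arm, without use of their levels, and 11 of the 778 mature miRNAs in the table belonged to them. Of 10 mature miRNAs on the list by name, 8 had a row, and the other arms miR-150-3p, miR-124-5p and miR-9-3p added 3 more. MiR-142-3p and miR-223-3p were not analysed here, so miR-223 had no row and 7 of the 8 hairpins had at least 1.

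The cells were mesangial cells in primary culture, which hold up the capillaries of the kidney glomerulus and can contract, at passages 3 to 6. All were kept in medium with 25.5 mM glucose and 20% foetal bovine serum. The Control group held 3 libraries without the cytokine, and the TGF-b1 group held 3 libraries of cells given transforming growth factor β1 (TGF-β1), a driver of fibrosis, at 10 ng/ml for 72 h. The labels give no strain, age or source animal and do not say whether replicates were separate cultures, so p-values measure only the spread between these libraries, which may be technical. The comparison asks how far miRNAs of other lineages were present, and whether their levels differed after TGF-β1.

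A miRNA is cut from a hairpin precursor, which can yield a mature strand from each arm (5p and 3p), and the bases near its 5′ end, the seed, pair with target mRNAs. MiR-126 is made from an endothelial gene, Egfl7, and supports vessel integrity. MiR-142 is present across blood lineages, miR-223 marks myeloid cells and miR-150 mature lymphocytes. MiR-122 dominates the miRNAs of hepatocytes and takes part in cholesterol metabolism. MiR-124 is abundant in neurons, miR-9 acts in neural progenitors and neurons, and miR-203 restrains the stem-cell state of stratified epithelium. In a sample of many cells, fewer cells of a type and less RNA per cell cannot be told apart.

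The mature sequences below are shown because a read was counted for a lineage by its match to them, and because miR-9 is the hairpin here with reads from both arms in every library. They came from RefSeq (GRCm38.p6), in which 6 of the 11 members were matched, miR-126-3p and miR-142-5p under their present names miR-126a-3p and miR-142a-5p. MiR-126-5p, miR-150-5p, miR-122-5p, miR-124-3p and miR-124-5p are named only. Capitals mark the seed, bases 2 to 8.
miR-126-3p: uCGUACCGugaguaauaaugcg
miR-142-5p: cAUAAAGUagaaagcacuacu
miR-150-3p: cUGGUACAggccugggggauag
miR-9-5p: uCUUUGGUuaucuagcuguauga
miR-9-3p: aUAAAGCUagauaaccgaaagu
miR-203-3p: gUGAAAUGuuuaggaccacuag

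No seed was shared between these 6, and 0 other names among the 1679 mouse mature miRNAs of that table carried any of the 6 seeds. On the plus strand, miR-126-3p lies at chr2:26591402-26591423, miR-142-5p at chr11:87756867-87756887, miR-150-3p at chr7:45121798-45121819 and miR-203-3p at chr12:112130927-112130948. MiR-9-5p is encoded at 3 loci with the same mature sequence, chr3:88215613-88215635, chr7:79505279-79505301 and chr13:83738821-83738843, so its reads cannot be assigned to a locus. In the GENCODE vM1 annotation of the older NCBIM37 build, the miR-126 hairpin overlaps an exon of the protein-coding gene Egfl7, the miR-142 hairpin lies in an intron of the transcript A430104N18Rik, and no other gene overlaps the hairpins of miR-150 and miR-203.

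Levels are given in RPM, reads of a miRNA for every 1000000 reads of the library total, and as the reads recovered from these values. The library totals ran from 16478281 to 20169254 reads, so that 1 read was worth 0.0496 to 0.0607 RPM, and the value of 3 reads, taken as the limit for a row with 0 reads, was 0.149 to 0.182 RPM. This is a one-sided limit, and the two-sided exact 95% intervals given for single libraries reach further at 0 reads, to 0.183 to 0.224 RPM. Such limits and all intervals reflect counting error alone, because reads made by PCR without molecular identifiers are not separate molecules. Of the library total, 79.6% ± 0.142 lay in the rows of the table for Control and 72.3% ± 0.752 for TGF-b1 (SD, n = 3 per group).

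The 11 lineage miRNAs together had 2349 of the 105953945 reads of the 6 libraries, and 88.2% of these were reads of miR-122-5p. Their share of the library total was between 0.00272% and 0.00303% in Control and between 0.00155% and 0.00162% in TGF-b1. The remaining members fell into a pair near 1 RPM, miR-124-3p and miR-9-5p, and 8 rows that never exceeded 7 reads or 0.397 RPM in any library. Only miR-122-5p and that pair, 3 rows, passed the filter on low reads and could be tested.

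**Figure D1:**
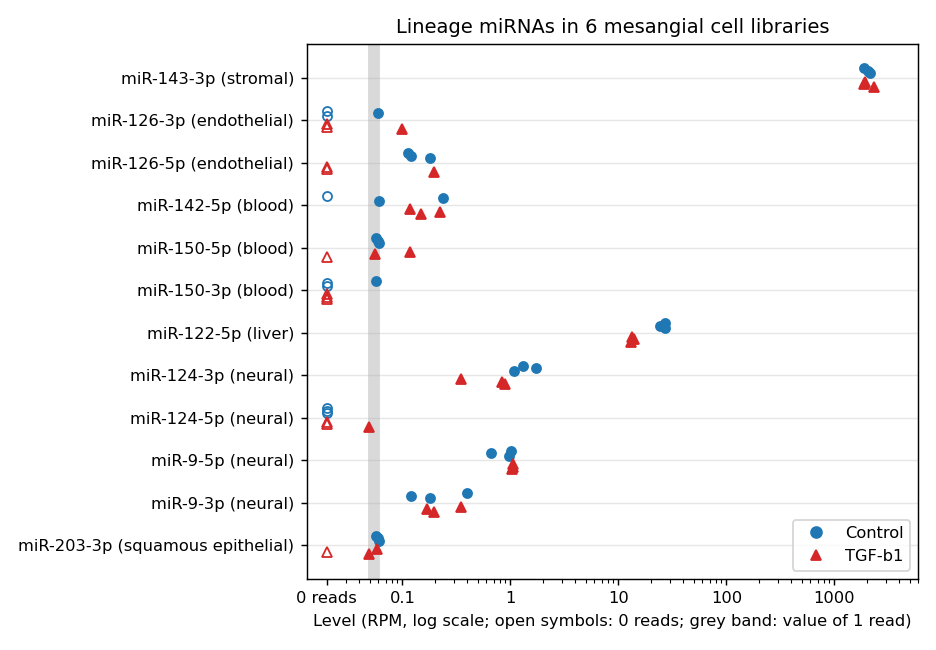
Level of each of the 11 lineage miRNAs, and of the stromal miR-143-3p for scale, in RPM on a log axis, with 1 point per library (circles Control, triangles TGF-b1); open symbols mark 0 reads and the grey band the value of 1 read. MiR-122-5p sits between 13.1 and 27.3 RPM with the groups apart, while the endothelial, blood and squamous epithelial rows lie at or within a few reads of 0.

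The liver miRNA, miR-122-5p, was the most abundant member. It had 26.9, 24.2 and 27.3 RPM in Control replicates 1 to 3, from 444, 403 and 481 reads, and 13.1, 13.9 and 13.5 RPM in TGF-b1 replicates 1 to 3, from 264, 249 and 230 reads. Every TGF-b1 library lay below every Control library, and the 95% exact (Clopper-Pearson) intervals did not meet either, the lowest Control bound being 21.9 RPM and the highest TGF-b1 bound 15.7 RPM. Its mean fell from 26.1 ± 1.72 RPM to 13.5 ± 0.406 RPM (SD, n = 3 each).

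On the log2(RPM + 1) scale the change of miR-122-5p was -0.90 ± 0.12 (SE), with a 95% interval from -1.18 to -0.63 and a limma adjusted p of 0.000763 over the 408 miRNAs tested. It was thus lower after TGF-β1, as were 31.9% of all tested miRNAs at an adjusted p under 0.05, but it did not reach an absolute log2 change above 1, as 7.84% of tested miRNAs did in this direction and 4.41% in the other. The median change of all tested miRNAs was -0.17, and -0.08 to -0.02 with TMM, median-of-ratios, upper-quartile or row-sum scaling, under which the change of miR-122-5p was -0.77 to -0.70. On the scale of the library totals, 45 of the 408 had a lower change than miR-122-5p. The ratio of its group means, without a pseudocount, was 0.516. The spread between replicates was 6.57% of the mean in Control and 3.01% in TGF-b1, where counting error alone gives 4.75% and 6.35%, so these libraries differed from each other by about as much as reads of this number do.

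Ranked by level, miR-122-5p stood at places 121 to 132 of 778 in the Control libraries and 151 to 158 in the TGF-b1 libraries. By its mean over the 6 libraries it was 141st, next below miR-186-5p (19.3 ± 3.19 RPM in Control and 21.5 ± 0.916 in TGF-b1) and next above miR-183-5p (11.6 ± 0.289 and 27.6 ± 4.76 RPM, SD, n = 3 each). No row of its other arm, miR-122-3p, was analysed here. Reads of a mature sequence do not show which cell or fluid they came from, and no library of medium or serum alone was among the 6; the part of either in these reads was not tested.

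The main neural members, miR-124-3p and miR-9-5p, stood near 1 RPM, and whether their changes differed from each other was not tested. Of the neural miRNAs on a further list given below, miR-129-5p had 3.40 and 1.62 RPM in Control and TGF-b1. There miR-219-5p had 2.54 and 2.69 RPM, and miR-153-3p had no row. The 3p arms of these hairpins were not on that list. Over the 6 libraries miR-129-2-3p had a mean of 25.5 RPM, above the 19.8 RPM of miR-122-5p, and miR-219-1-3p 9.76 RPM. The arms miR-129-1-3p and miR-219-2-3p had 0.0301 and 0.166 RPM. MiR-124-3p had 1.09, 1.74 and 1.31 RPM in Control replicates 1 to 3 (18, 29 and 23 reads) and 0.892, 0.837 and 0.351 RPM in the TGF-b1 replicates (18, 15 and 6 reads). The groups did not overlap in RPM, although the lowest Control library and TGF-b1 replicate 1 had 18 reads each. Its mean was 1.38 ± 0.329 RPM in Control and 0.694 ± 0.298 RPM in TGF-b1 (SD, n = 3 each). The ratio of its group means, without a pseudocount, was 0.503, beside 0.516 for miR-122-5p. At levels near 1 RPM the added 1 makes the log2(RPM + 1) change smaller than that ratio gives. This change was -0.50 ± 0.17 (SE, limma adjusted p = 0.0454), just inside the threshold of 0.05. This call was lost in 16 of the 19 alternatives that could test it, with adjusted p-values between 0.0355 and 0.352 over all 19, and the direction was the same in each. Without TGF-b1 replicate 3, its lowest library, the change was -0.34 (limma adjusted p = 0.124), and without Control replicate 2, its highest, -0.39 (limma adjusted p = 0.140).

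MiR-9-5p had 0.971, 0.659 and 1.02 RPM in Control replicates 1 to 3 (16, 11 and 18 reads) and 1.04, 1.06 and 1.05 RPM in the TGF-b1 replicates (21, 19 and 18 reads). The lowest TGF-b1 library was above the highest Control library, by a margin smaller than the value of 1 read. For miR-9-5p the ratio of group means, without a pseudocount, was 1.19. Its log2(RPM + 1) change was 0.13 ± 0.12 (SE), with a 95% interval from -0.16 to 0.42 and a limma adjusted p of 0.428, so no difference was detectable at this depth. With it, 0 members were higher at a limma adjusted p under 0.05 (0 at an unadjusted p under 0.05, and 0 with edgeR or DESeq2), where 17.4% of all tested miRNAs were. The TGF-b1 values lay closer together (0.932% of their mean) than counting error gives (22.7%), which makes their SD of 0.00981 RPM too small a measure of their error. Among all tested miRNAs, 36% had groups that did not overlap with TGF-b1 lower and 20.8% with TGF-b1 higher, against which stand miR-122-5p and miR-124-3p in the first direction and miR-9-5p in the second.

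**Figure D2:**
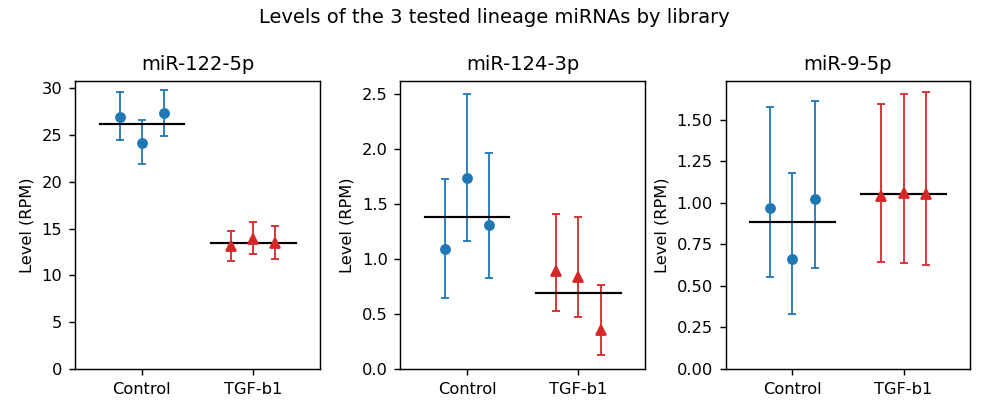
Level in RPM of the 3 members that could be tested, with 1 point per library, 95% exact counting intervals as bars and the group mean as a black line. The intervals of the groups stay apart for miR-122-5p (at most 15.7 against at least 21.9 RPM) and meet for miR-124-3p and miR-9-5p.

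The second arm of miR-9, miR-9-3p, had 3, 2 and 7 reads in the Control replicates and 4, 3 and 6 in the TGF-b1 replicates. Its mean of 0.233 ± 0.146 RPM in Control and 0.239 ± 0.0983 RPM in TGF-b1 (SD, n = 3 each) differed by less than the spread between replicates. Both arms of the hairpin were therefore present in all 6 libraries, with 3.75 reads of the 5p arm for each read of the 3p arm in Control and 4.46 in TGF-b1. The second arm of miR-124, miR-124-5p, had 1 read in TGF-b1 replicate 1 and 0 in the other 5 libraries.

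The endothelial miRNAs were at or near 0. MiR-126-3p, the arm whose sequence is shown above, had 1 read in Control replicate 2 (0.0599 RPM, 95% exact interval 0.00152 to 0.334), 2 reads in TGF-b1 replicate 1 (0.0992 RPM, interval 0.0120 to 0.358) and 0 in the other 4 libraries. MiR-126-5p had 3, 2 and 2 reads in the Control replicates and 4, 0 and 0 in the TGF-b1 replicates. All 6 endothelial reads of the TGF-b1 group came from replicate 1, and for the counts of 0 in replicates 2 and 3 the limit of 3 reads was 0.167 and 0.176 RPM, and the upper bound of the exact interval 0.206 and 0.216 RPM for each arm. Summed over both arms and all libraries, the endothelial hairpin gave 14 reads, or 0.132 RPM with an exact Poisson 95% interval from 0.0722 to 0.222.

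The blood members that had a row, miR-142-5p and both arms of miR-150, were as scarce. The red cell miR-486-5p, which is not a member, stood higher and is given below. MiR-142-5p had 1, 4 and 0 reads in the Control replicates and 3, 4 and 2 in the TGF-b1 replicates, and the groups overlapped. MiR-150-5p had 1 read in each Control library and 0, 1 and 2 in the TGF-b1 libraries, and miR-150-3p had 1 read in Control replicate 3 and 0 elsewhere. The 3 blood rows gave 9 reads in Control and 12 in TGF-b1, or 0.177 RPM (exact Poisson 95% interval 0.0810 to 0.336) and 0.218 RPM (0.112 to 0.380). A difference between the groups was not detectable at this depth.

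The squamous epithelial miR-203-3p had 1 read in each library except TGF-b1 replicate 2, which had 0. Its 5 reads over the 6 libraries gave 0.0472 RPM, with an exact Poisson 95% interval from 0.0153 to 0.110. Of the 8 rows too low to be tested, 7 had 0 reads in at least 1 library, and 5 had no more than 3 reads in any library.

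Summed by lineage, the order of levels was the same in both groups at its upper end. The liver miRNA came first, the 4 neural rows followed with 2.25, 2.52 and 2.72 RPM in the Control replicates and 2.18, 2.07 and 1.76 RPM in the TGF-b1 replicates, and the other lineages stayed below 0.3 RPM in every library. The blood rows had 0.178 ± 0.105 and 0.221 ± 0.0662 RPM, the endothelial rows 0.158 ± 0.0390 and 0.0992 ± 0.172 RPM, and the squamous epithelial row 0.0591 ± 0.00212 and 0.0360 ± 0.0315 RPM, in Control and TGF-b1 respectively. For each of these 3 sums the libraries of the groups overlapped. The blood and endothelial sums overlapped within both groups as well, while the squamous epithelial sum lay below both in every Control library and overlapped the endothelial sum in TGF-b1.

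Markers of the labelled cell type were set beside these levels. Of 10 miRNAs listed for stromal and contractile cells (both arms of miR-143, miR-145, miR-199a, miR-199b and miR-214), 10 had a row and 5 had a higher mean than miR-122-5p. Their summed level was 3447 to 4130 RPM in Control and 3253 to 3866 RPM in TGF-b1. The highest, miR-143-3p, which is known from contractile cells, had 2029 ± 125 RPM in Control and 2052 ± 258 RPM in TGF-b1 (SD, n = 3 each), 77.7 and 152 times the level of miR-122-5p. The log2(RPM + 1) change of miR-143-3p was 0.01 (limma adjusted p = 0.945), but other stromal rows did change. The other arm, miR-143-5p, had means of 417.1 and 196.0 RPM in Control and TGF-b1. It changed by -1.12 (limma adjusted p = 0.0229), although its groups overlapped. MiR-145-5p had means of 127.4 and 238.6 RPM and changed by 0.92 (limma adjusted p = 0.00235). Of the 8 stromal rows tested, 1 was higher and 4 were lower after TGF-β1 at a limma adjusted p under 0.05, where 49.3% of all tested miRNAs passed. With each of the 4 other scalings these numbers became 2 and 2. Without Control replicate 1 or without TGF-b1 replicate 2 they were 1 and 1. The median change of the 8 was -0.25, beside -0.17 for all tested miRNAs. MiR-199a-3p and miR-199b-3p had almost the same reads in each library and may not be separate measurements. Each enters the sum above, at 480 to 666 RPM, and the counts, so the same reads may be counted in both rows.

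**Figure D3:**
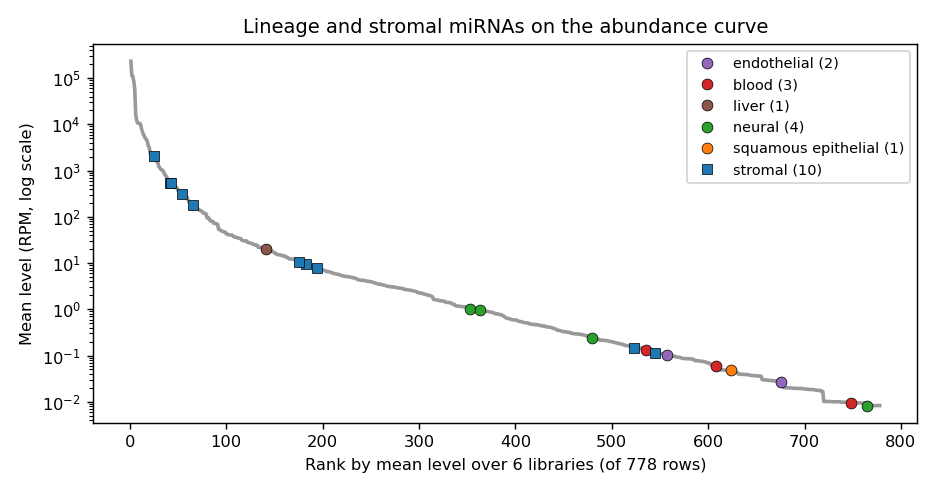
Mean level over the 6 libraries (RPM, log axis) of all 778 rows in order of abundance, with the lineage members as circles and the 10 stromal miRNAs as squares. MiR-122-5p lies at place 141, within the range of the stromal miRNAs, and every endothelial, blood and squamous epithelial row lies at place 535 or beyond.

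A further list of 29 miRNAs, chosen as lineage-restricted, held no members. It covered red cells, striated muscle, other neural and epithelial miRNAs, endocrine cells, pluripotent cells and kidney tubule. How far each is restricted to its lineage was not tested. Of the 29, 18 had a row, 2 had a higher mean than miR-122-5p, and 6 never exceeded 3 reads in a library. Its epithelial rows were miR-205-5p, miR-200c-3p and miR-141-3p, and the rest of the miR-200 family was not on it. Of that rest, miR-200a-3p, miR-200b-3p and miR-429-3p had means of 6.96, 3.67 and 2.14 RPM over the 6 libraries. Their log2(RPM + 1) changes were -2.64, -2.27 and -1.94 (limma adjusted p = 4.17e-05, 6.05e-05 and 4.17e-05). None of the 7 pluripotent miRNAs of the list had a row here. The highest row of the list was miR-206-3p, a miRNA of skeletal muscle, with 3502 ± 114 RPM in Control and 3363 ± 90.1 RPM in TGF-b1 (SD, n = 3 each), 134 and 249 times the level of miR-122-5p. Its log2(RPM + 1) change of -0.06 did not pass (limma adjusted p = 0.420). The other muscle miRNAs of the list are named here after their values were seen. MiR-1a-3p had 9.99 ± 1.39 and 10.8 ± 0.698 RPM (SD, n = 3 each). MiR-133a-3p and miR-133b-3p had no more than 3 reads in a library. MiR-499-5p had 18 reads over the 6 libraries, and miR-208a-3p and miR-208b-3p had no row.

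In that list 9 rows could be tested, and 2 were higher and 2 lower after TGF-β1 at a limma adjusted p under 0.05. Over all tested miRNAs 17.4% were higher and 31.9% lower, 49.3% together, so the share of calls in the list was near that background and is no result about it. The 4 are named here after their values were seen. MiR-192-5p and miR-194-5p, listed under kidney tubule, rose by 0.23 and 0.54 on the log2(RPM + 1) scale (limma adjusted p = 0.0396 and 0.0186). Whether their reads came from tubule cells or from the mesangial cells was not tested. The red cell miR-486-5p and the neural miR-129-5p changed by -0.47 and -0.74 (limma adjusted p = 0.0146 and 0.00358). The 3p arm miR-129-2-3p, outside the list, changed by -0.48 with overlapping groups and did not pass (limma adjusted p = 0.104). After miR-206-3p, miR-192-5p was the other row of the list with a higher mean than miR-122-5p. It had 297 ± 6.99 RPM in Control and 350 ± 11.8 RPM in TGF-b1 (SD, n = 3 each). MiR-194-5p had 2.29 and 3.79 RPM in Control and TGF-b1, and miR-215-5p, also listed under tubule, 0.826 and 1.06 RPM. Red cell miR-486-5p had 4.49 and 2.97 RPM, and miR-451 0.198 and 0.0195 RPM. MiR-486-5p had the same reads as miR-3107-5p in every library, so its reads cannot be assigned to either. Its call was lost with TMM, upper-quartile or median-of-ratios scaling, with DESeq2, and without Control replicate 3 or TGF-b1 replicate 2. It was also lost with edgeR under TMM, with edgeR without a filter, and with a term for replicate number. The call of miR-129-5p was lost with DESeq2 (adjusted p = 0.0633). That of miR-192-5p was lost without a filter (limma or edgeR) and when any 1 library was left out. That of miR-194-5p was lost without Control replicate 1, Control replicate 3 or TGF-b1 replicate 3. With a term for replicate number both of these calls were lost. The number of higher calls was 0 without Control replicate 1, without Control replicate 3 and without TGF-b1 replicate 3, and 1 without Control replicate 2, TGF-b1 replicate 1 or TGF-b1 replicate 2. That of lower calls was 1 without Control replicate 3 or TGF-b1 replicate 2, and 3 without TGF-b1 replicate 1.

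The pattern of miR-122-5p, the one member with a mean of at least 10 RPM, was compared with that of every other tested miRNA. By Pearson's r of log2(RPM + 1) over the 6 libraries, the nearest were let-7c-5p (r = 0.998), let-7b-5p (r = 0.991) and miR-181d-5p (r = 0.988). These points share their libraries, and the values fall into the groups Control and TGF-b1, so the difference between groups makes up most of each r. Let-7b-5p went from 134167 ± 2097 to 85880 ± 2173 RPM, and miR-181d-5p from 847 ± 4.23 to 430 ± 22.3 RPM (SD, n = 3 each). The log2 changes of let-7c-5p, let-7b-5p and miR-181d-5p were -0.28, -0.64 and -0.98, beside -0.90 for miR-122-5p.

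**Figure D4:**
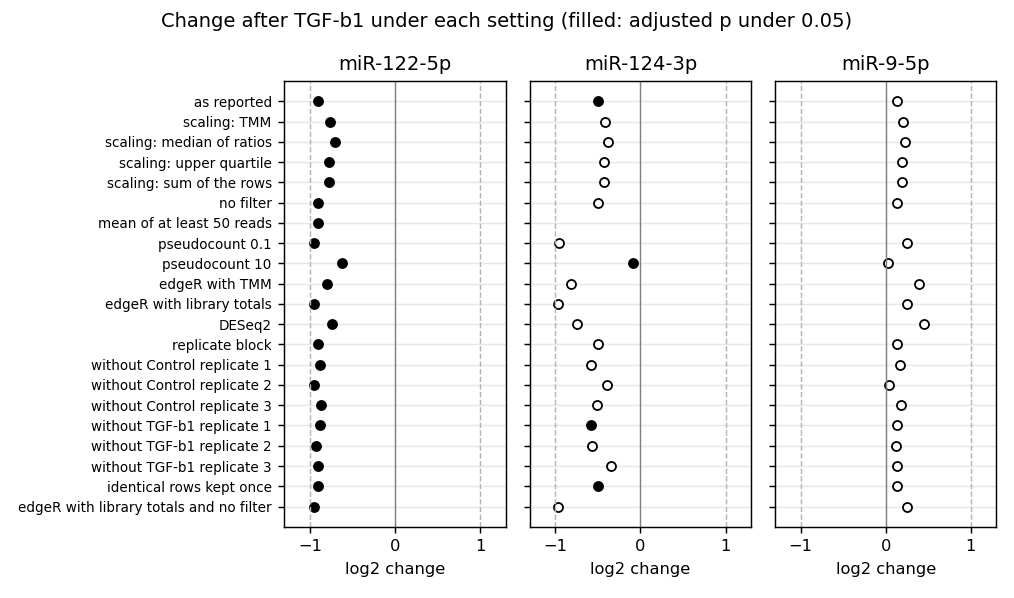
Change after TGF-b1 of the 3 tested members on each setting's log2 scale, with 1 point per setting, filled where the adjusted p was under 0.05; dashed lines mark a change of 1 in either direction. MiR-122-5p is filled and between -0.96 and -0.62 throughout, miR-124-3p is filled in 3 alternatives of 19, and miR-9-5p in 0 of 19.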

How the data were processed

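Small RNA of 6 libraries, 3 Control and 3 TGF-b1, was sequenced on an Illumina HiSeq instrument. Per the methods of the study, adaptors, contaminants, low-quality reads and reads under 18 nt were removed, and the rest were compared with miRBase version 17 using Bowtie (version not given in the sources used here). The authors deposited 778 rows in a unit they call TPM, which is RPM here, since no scaling by length was found. How reads matching several miRNAs were counted is not stated. Each library total was recovered as the integer that makes the values whole reads, and 100% of the values were whole within 0.002.

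Groups were compared on log2(RPM + 1) in R 4.3.3 by limma 3.58.1, whose prior variance followed the mean level, with no term but group, over the 408 miRNAs that passed filterByExpr of edgeR 4.0.16 (minimum count 10) on the recovered reads. The Benjamini-Hochberg adjustment was made over all 408, and a log2 change above 1 was a second threshold. As alternatives, edgeR and DESeq2 1.42.0 were run on the recovered reads; edgeR with library totals gave 69 miRNAs higher and 125 lower. Chi-square per degree of freedom between libraries of a group was 38.4 to 124, so no library was present more than once. A planned test of arm ratios was not run, since 84 hairpins, 0 of them members, reached a mean of 1 RPM on both arms.

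Every member is named, with the highest row of each list, the neighbours in rank of miR-122-5p and the 3 nearest patterns; other names were chosen after their values were seen. The members and lists were chosen with earlier results of these data known. Intervals are exact Clopper-Pearson for 1 library and exact Poisson for sums.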

Additional observations from a re-analysis of the deposited data

How the results depend on the processing

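MiR-122-5p had a lower level after TGF-β1 with an adjusted p under 0.05 in all 20 alternatives, with log2 changes from -0.96 to -0.62 and adjusted p-values from 0.000514 to 0.00594. Of all 408 tested miRNAs, 130 were lower at an adjusted p under 0.05, 91 to 105 with the 4 other scalings and 72 with DESeq2. Beside these, counts among 3 tested members are no result about them as a set. The number of members lower at an adjusted p under 0.05 was 2, and it was 1, miR-122-5p, with each of the 4 other scalings, without a filter, with a mean of at least 50 reads (where 1 member was tested), with a pseudocount of 0.1, with edgeR under TMM or library totals, and with DESeq2. It was 1 to 2 when each library was left out, 2 only without TGF-b1 replicate 1. The cause was not tested. The number higher was 0 in all 20, and 0 members passed the log2 threshold of 1 or of 2. Replicate numbers were not treated as pairs (same-numbered deviations correlated at -0.09, -0.28 and -0.38, and 0 of the 6 libraries were closest to their own number); with the replicate block the number of members lower was 1 and higher 0, and in the further list 1 and 0. With edgeR on library totals without a filter, an alternative chosen after seeing the data that tested all 11 rows, it was also 1. The difference of miR-122-5p was -12.6 RPM, and -9.81 to -10.8 RPM under the other scalings; that of the summed neural rows was -0.495 RPM, and -0.164 RPM with median of ratios. Depth limits the 8 untested rows, where a group holds 0 to 13 reads a row.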
